A study of Harpegnathos saltator with 12 samples.

Results

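The genes described here are the most abundant transcripts of the adult antenna of the ant Harpegnathos saltator that were abundant in all 3 genotypes of an orco mutant series. Of 14407 genes in the count tables, 51 were kept: those carrying a RefSeq LOC identifier whose mean normalized count (read count divided by the authors' size factor) was at least 10000 in homozygous mutants, in heterozygotes and in wild type (WT) alike. The same 12 libraries therefore chose the genes and give the levels reported here, so the levels and the differences between genotypes are a description of genes already known to be high in each group. Before 1 gene was set aside, 52 genes passed, and 1 gene without a LOC identifier, mt:COI of the mitochondrial genome, also reached the minimum and was not included. The lowest of the 3 group means was 10119 normalized counts for Obp6 and 10168 for LOC112590358, the members closest to the minimum, and 9843 for LOC105190668 and 9661 for mub, the genes that just missed it.

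Polyadenylated RNA from antennae was sequenced in 7 libraries of ants homozygous for a mutation in orco, 3 libraries of heterozygous ants and 2 libraries of WT ants. Orco is the co-receptor that every odorant receptor needs, and the study asked what remains of receptor expression in the antenna without it. Sequencing batch 1 held homozygote replicate 1, heterozygote replicate 1 and WT replicate 2, and the rest were in batch 2, and both batches thus contained all genotypes. Heterozygotes and WT together are called controls (n = 5). The age of the ants, the number of ants per library and the mutant allele are not given in the sources used here, and nothing states that libraries of 1 genotype came from separate colonies. P-values therefore measure the spread between these libraries.

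An antenna is a sensory appendage whose hair-like sensilla house receptor neurons, the support cells that wrap them and a lymph that bathes their dendrites. Support cells secrete odorant-binding proteins into this lymph, where they carry odorants towards the receptors, and they use ATP-driven ion pumps to keep up the potassium gradient that drives the receptor current. Transcripts that stay abundant in any tissue also include those for translation, protein folding and energy supply. Of the 51 genes, 24 had a symbol in RefSeq and 27 were known by gene identifier only, and no role is given to those 27. By role, the named genes comprised 3 odorant-binding proteins, 3 ion pumps, 2 genes of energy supply, 6 of translation and RNA binding, 4 of protein folding, ubiquitin and 14-3-3 signalling, 3 enzymes of detoxification and nitrogen metabolism, and 3 neural or regulatory genes.

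Depth was between 4.11 M and 23.2 M gene-assigned counts per library, so 3 counts, taken as the detection floor, corresponded to between 0.129 and 0.730 CPM (read counts relative to the TMM-scaled library size) and no member was near it. Orco itself averaged 44.6 ± 50.7 CPM in homozygotes, 1984 ± 494 CPM in heterozygotes and 2524 ± 347 CPM in WT (SD, n = 7, 3 and 2), with no overlap between homozygotes and controls. The neuronal marker nSyb was detected in every library, at 182 to 320.4 CPM (median 216) in homozygotes, 983, 918 and 843 CPM in heterozygotes and 706 and 792 CPM in WT. Another neuronal marker, fne, overlapped between the groups, with 206 to 569 CPM (median 258) in homozygotes and 314 to 537 CPM in controls. Several libraries stood apart. The gene apd-3l, which is no member, was the gene with the most counts in 8 libraries and ranged between 1586 and 139162 CPM over homozygotes, against 29.4 and 4.57 CPM in WT. Muscle genes were low in heterozygote replicate 2 and in WT, and WT replicate 1 held the highest level of 18 of the 51 genes. Counts are not adjusted for gene length, so levels are compared here between libraries and not between genes.

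The label of most abundant transcripts held in part. Of the 51 genes with the most counts in a library, between 24 and 35 were members, since other genes reached the same abundance in only some libraries: 111 further LOC genes passed the minimum in 1 or 2 genotypes but not in all 3. The 51 genes together took 12.0% ± 1.70 of gene-assigned counts in homozygotes (n = 7), 11.7% ± 1.88 in heterozygotes (SD, n = 3), and 20.6% and 12.2% in WT replicates 1 and 2. The 95% Wilson interval of the WT replicate 1 share was 20.59% to 20.63%, which covers counting error only. Obp1 alone took between 0.387% and 0.729% in homozygotes, between 0.596% and 1.13% in heterozygotes, and 5.56% and 1.31% in WT replicates 1 and 2. Without Obp1 the share was 11.4% ± 1.62 in homozygotes, 10.8% ± 1.61 in heterozygotes, and 15.1% and 10.9% in WT, so WT replicate 1 remained the highest library.

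Most members held their level within a few fold over all 12 libraries. The ratio of the highest to the lowest library had a median of 2.52 over the 51 genes, with a range of 1.35 to 19.6, and the SD of log2 CPM over libraries had a median of 0.41 (0.13 to 1.3 over the members). Over the 10295 tested genes with a count in every library these medians were 2.77 and 0.42. Over homozygotes alone the median SD was 0.23 for the members and 0.25 for all such genes. The ratio was under 2 for 13 members, between 2 and 4 for 23 and over 4 for 15. Of the 51, 34 had at least 10000 normalized counts in every library, and the other 17 dropped below it somewhere, most often in heterozygote replicate 1 (10 genes) and heterozygote replicate 2 (7 genes), and in no case in heterozygote replicate 3 or in homozygote replicates 2, 3, 4 and 7.

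**Figure D1:**
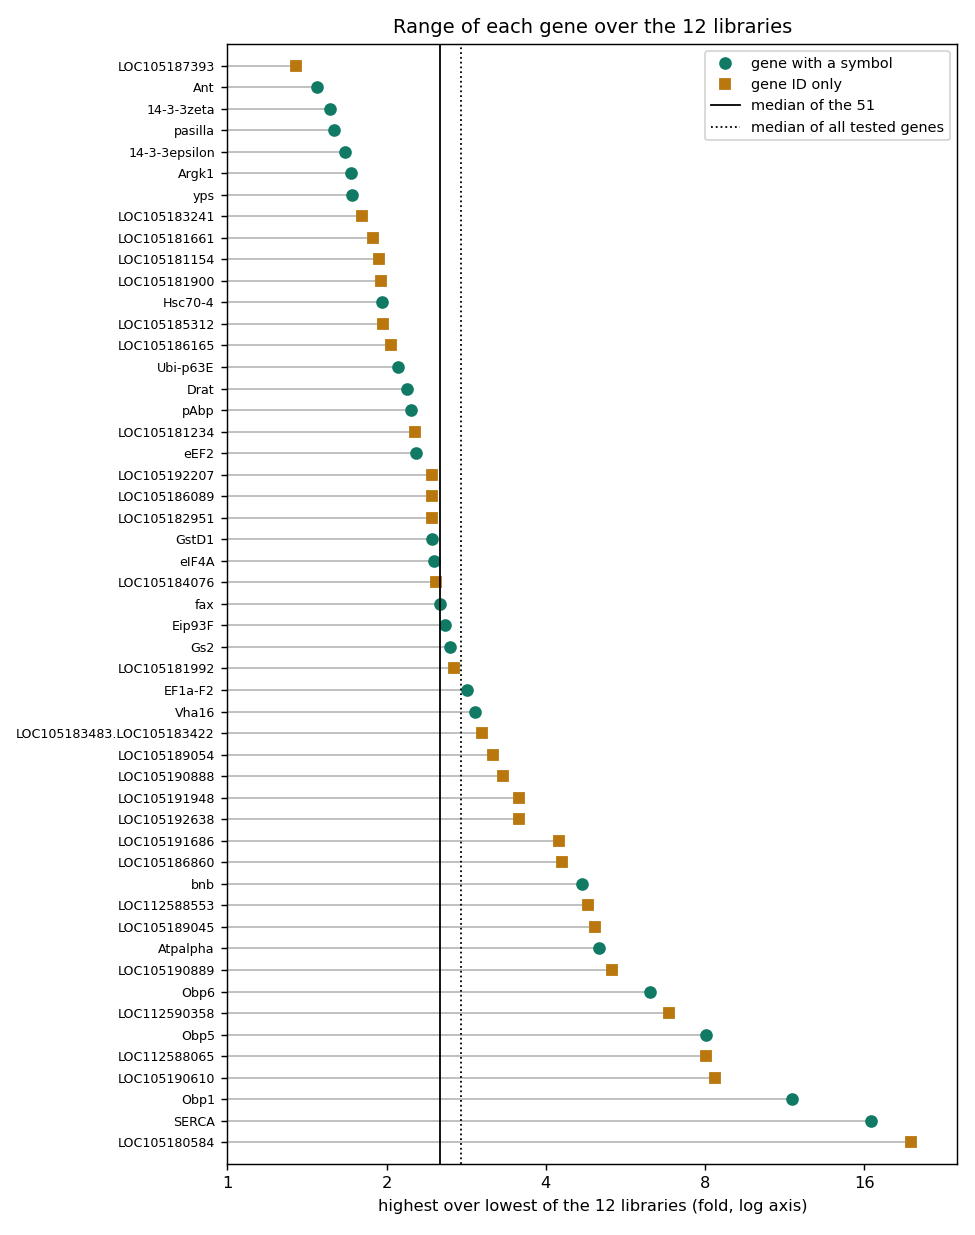
Ratio of the highest to the lowest of the 12 libraries (fold, log axis) for each of the 51 genes, in TMM-scaled CPM. Circles are genes with a RefSeq symbol and squares genes known by identifier; the solid line is the median of the 51 genes (2.52) and the dotted line that of the tested genes with a count in every library (2.77). LOC105187393 had the smallest ratio (1.35), and Obp1, SERCA and LOC105180584 the largest (11.7, 16.5 and 19.6).

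The extremes were not spread evenly over libraries. The highest library was WT replicate 1 for 18 genes, heterozygote replicate 2 for 10 and homozygote replicate 2 for 8, and it was heterozygote replicate 3, homozygote replicate 3 or homozygote replicate 6 for none. The lowest library was WT replicate 2 for 13 genes, heterozygote replicate 1 for 13 and heterozygote replicate 2 for 9. WT replicate 2 and heterozygote replicate 1 belong to batch 1, and WT replicate 1 and heterozygote replicate 2 to batch 2.

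**Figure D2:**
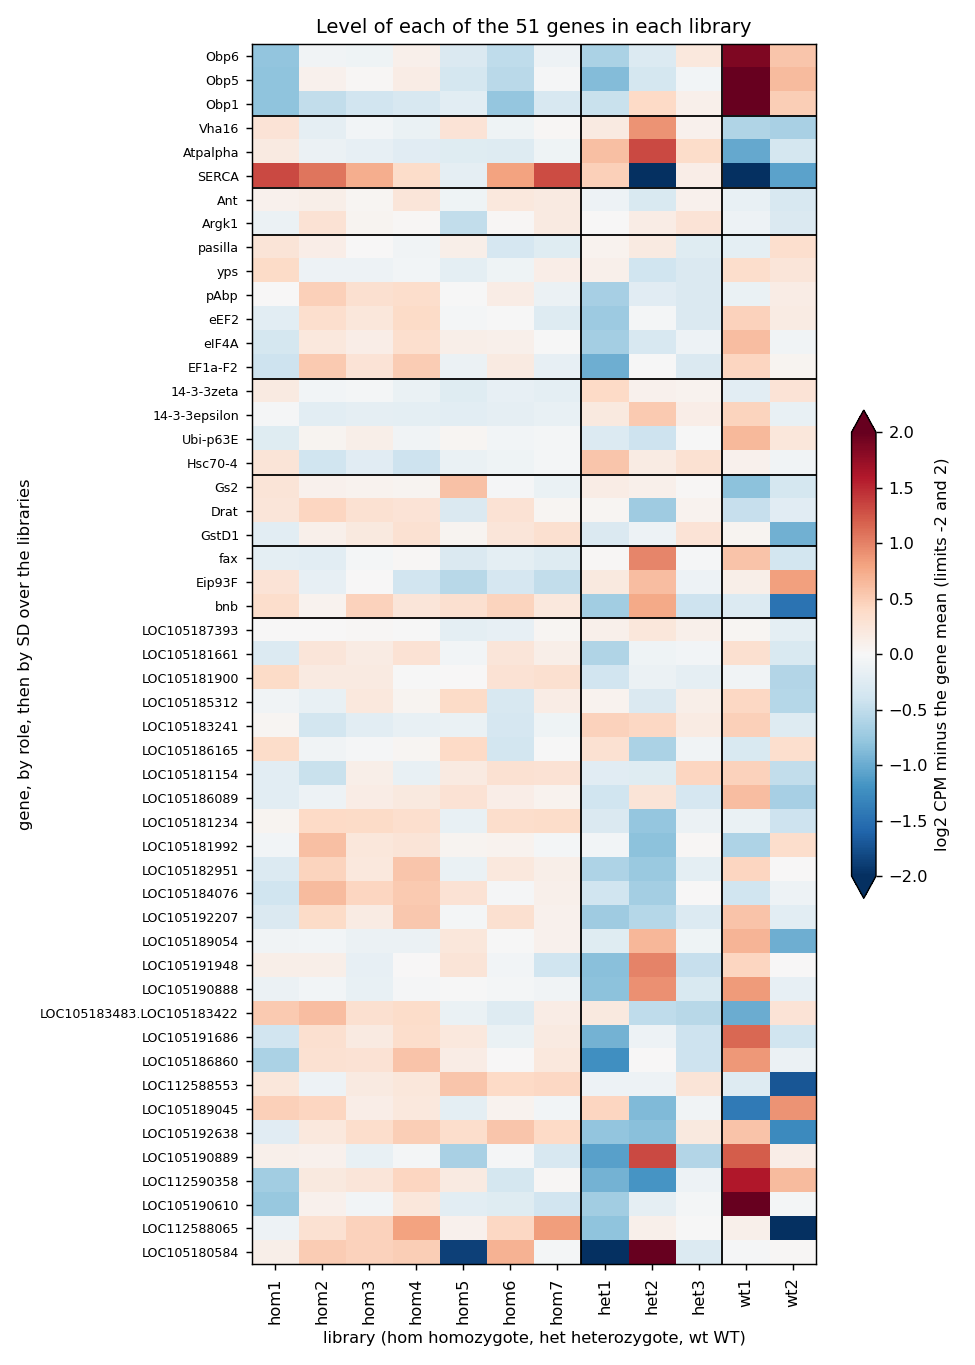
Level of each of the 51 genes (rows, grouped by role) in each library (columns; homozygotes left, heterozygotes in the middle, WT right) as log2 CPM minus the mean of the gene over the 12 libraries, with colours limited at -2 and 2. The odorant-binding protein genes and LOC105190610 were highest in WT replicate 1, SERCA was lowest there and in heterozygote replicate 2, and LOC105180584 had its highest value in heterozygote replicate 2 and its lowest in heterozygote replicate 1.

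Differences between genotypes were fitted for all 10740 genes with a mean count of at least 10 and adjusted over all of them (edgeR's quasi-likelihood test with a batch term, Benjamini-Hochberg). The threshold for a call was an adjusted p of 0.05. In homozygotes against controls 7 of the 51 genes were higher, where 18.8% of all genes tested were called higher, and 7 were lower, where 25.0% were. In homozygotes against heterozygotes 2 were higher (6.82% of all genes) and 2 lower (16.2%). In homozygotes against WT 5 were higher (19.1%) and 7 lower (25.8%). In heterozygotes against WT 2 were higher (9.71%) and 11 lower (8.14%). These comparisons share libraries, and because a minimum in every genotype chose the genes, nothing is read from the counts about abundant genes as a class.

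Without WT replicate 1, the members called numbered 8 in homozygotes against controls, 5 in homozygotes against WT and 3 in heterozygotes against WT, 2 of these 3 among the 13 called with all libraries. Over all 10658 genes then tested, calls numbered 1212 higher and 1754 lower, 815 and 1147, and 261 and 191 in these comparisons. With all libraries they were 2023 and 2689, 2048 and 2768, and 1043 and 874 of 10740. Without homozygote replicate 6, the highest library of no member and the lowest of 1, 8 were also called in homozygotes against controls. Over all 10756 genes then tested, 1758 were called higher and 2764 lower. Without heterozygote replicate 2, no member was called in homozygotes against heterozygotes with edgeR, where 265 genes were higher and 1214 lower of 10731 tested. At an unadjusted p under 0.05 in edgeR there were 12 members, against 1060 genes higher and 1914 lower. In homozygotes against WT 18 members were called, against 2084 genes higher and 2827 lower. The direction of the calls also depended on the scaling and on the method. With library totals in place of TMM the members called in homozygotes against controls were 1 higher and 9 lower, those against heterozygotes 0 higher and 5 lower, and those against WT 3 higher and 11 lower. With DESeq2, which differs in both the scaling and the test, these splits were 13 and 8, 15 and 5, and 13 and 9, and in heterozygotes against WT 5 and 15. Over all 10740 genes, library totals gave 1297 and 3294, 261 and 1996, and 1320 and 3254 in homozygotes against controls, heterozygotes and WT. DESeq2 gave 2525 and 2687, 1377 and 1751, and 2558 and 2816 of 10730 genes, and 1430 and 1267 in heterozygotes against WT.

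No call was made for 31 members in any of the 3 pairwise comparisons and for 26 in any of the 4 genotype comparisons, and 19 of these 26 were not called between batches either. Of the 26, 15 were called in a genotype comparison under at least 1 of the alternatives run (DESeq2, other scalings, batch 2 alone or 1 library left out). The median log2 fold change of the 51 genes was -0.01 in homozygotes against controls and -0.08 in heterozygotes against WT, against -0.04 and 0.03 over all genes tested. The median size of the change, sign disregarded, was 0.31 and 0.36 for the members, against 0.39 and 0.38 over all genes. In homozygotes against heterozygotes it was 0.40 for the members and 0.30 over all genes. In 1 member, LOC105181900, the levels of homozygotes and controls did not overlap, as was the case for 12.5% of all genes tested.

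The 3 odorant-binding protein genes were lower in homozygotes than in WT and lower in heterozygotes than in WT, and none was called between homozygotes and heterozygotes. Obp1 (LOC105185923) stood at 4760 to 7218 CPM (median 6363) in homozygotes, 6135, 10936 and 8925 CPM in heterozygotes and 55594 and 11734 CPM in WT (replicates 1 and 2). The WT levels lay above all other libraries, homozygotes and heterozygotes overlapped, and WT replicate 1 was 4.74-fold above WT replicate 2. Its log2 fold change was -2.54 (SE 0.32, adjusted p = 0.00011) in homozygotes against WT, -1.89 (SE 0.41, adjusted p = 0.0107) in heterozygotes against WT and -0.65 (SE 0.31, adjusted p = 0.152) in homozygotes against heterozygotes. Against the mean of both control genotypes it was -1.60 (SE 0.27, adjusted p = 0.00072), and -1.90 within batch 2 alone. In batch 1, with 1 library per genotype, Obp1 had 4760 CPM in the homozygote, 6135 CPM in the heterozygote and 11734 CPM in the WT library. In these bulk samples, fewer cells of a type and less RNA per cell cannot be told apart. Without WT replicate 1 the difference of heterozygotes against WT was -0.83 and no longer called.

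Obp5 and Obp6 lie next to each other in RefSeq with no gene between them. Obp5 (LOC105189917) had 1187 to 2303 CPM (median 2050) in homozygotes, 1138, 1626 and 2012 CPM in heterozygotes and 9133 and 3220 CPM in WT. Obp6 (LOC105189918) had 640.1 to 1186 CPM (median 1025) in homozygotes, 709.6, 913 and 1280 CPM in heterozygotes and 4027 and 1621 CPM in WT. For both genes each WT library lay above every other library, and the homozygotes and heterozygotes overlapped, with homozygote replicate 1 and heterozygote replicate 1, both of batch 1, the lowest of their groups. Obp5 changed by -1.93 (SE 0.23, adjusted p = 6.7e-05) on the log2 scale in homozygotes against WT and by -1.98 (SE 0.28, adjusted p = 0.00129) in heterozygotes against WT, while homozygotes against heterozygotes gave 0.05 (SE 0.22, adjusted p = 0.884). For Obp6 these values were -1.76 (SE 0.20, adjusted p = 5.01e-05), -1.58 (SE 0.24, adjusted p = 0.00197) and -0.17 (SE 0.19, adjusted p = 0.542). Against both control genotypes, Obp5 fell by 0.94 and Obp6 by 0.96 on the log2 scale (adjusted p = 0.00209 and 0.00073), and within batch 2 alone the changes were -1.06 and -1.08. The calls of these genes in homozygotes against WT, in heterozygotes against WT and against controls were kept without any single library.

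The annotation names 7 odorant-binding protein genes, of which 6 could be tested. Of these 6, 4 were lower in homozygotes against controls (25.0% of all genes), 5 lower in homozygotes against WT (25.8%), 3 lower in heterozygotes against WT (8.14%) and none higher, and none was called in homozygotes against heterozygotes (edgeR). The summed level of the list lay between 7232 and 11155 CPM in homozygotes, between 8745 and 14399 CPM in heterozygotes, and at 71393 and 17275 CPM in WT. Obp11, outside the 51 genes, had 576 to 915 CPM (median 776) in homozygotes, 686, 851 and 1109 CPM in heterozygotes and 2506 and 620.0 CPM in WT (replicates 1 and 2). It was lower in homozygotes against controls (log2 fold change -0.74 (SE 0.20, adjusted p = 0.0123)), and without WT replicate 1 the value was -0.21 and not called. The chemosensory proteins, another family of small carriers of sensillum lymph, were represented by CSP2 and CSP6, whose sum was between 13.4 and 76.4 CPM in homozygotes, between 31.4 and 103 CPM in heterozygotes, and 9.60 and 7.83 CPM in WT replicates 1 and 2, and neither was called. In WT replicate 2 CSP2 was near the detection floor (0.652 CPM). Depth and batch moved with these levels: WT replicate 1 was a library of batch 2 and WT replicate 2, the shallowest library, belonged to batch 1. In the same model all 3 members were higher in batch 2 than in batch 1, by 0.90 for Obp1, 0.89 for Obp5 and 0.80 for Obp6 on the log2 scale (adjusted p = 0.0468, 0.0108 and 0.00932). The part of depth in the WT levels was not tested.

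Markers of support cells, the cells that secrete these proteins, moved in different directions. The summed level of 3 markers lay between 268 and 377 CPM in homozygotes, between 319.5 and 382 CPM in heterozygotes, and at 469 and 379 CPM in WT replicates 1 and 2, and none of the 3 was at 0 in any library. The marker alpha4GT1/2 had 74 to 102 CPM (median 94.8) in homozygotes, 159, 121 and 167 CPM in heterozygotes and 195 and 159 CPM in WT, with no overlap between homozygotes and controls (log2 fold change -0.83 (SE 0.12, adjusted p = 0.000282)), and was not called in heterozygotes against WT (-0.25 (SE 0.18, adjusted p = 0.357)). The marker sv had 19.5 to 50.1 CPM (median 23.4) in homozygotes, 33.5, 10.2 and 17 CPM in heterozygotes and 1.91 and 23.9 CPM in WT and was higher in homozygotes against controls (1.54 (SE 0.33, adjusted p = 0.00314)), and LOC105188530 had 166 to 259 CPM (median 190.4) in homozygotes, 178, 189 and 198 CPM in heterozygotes and 272 and 196 CPM in WT and was not called in homozygotes against controls (-0.16 (SE 0.12, adjusted p = 0.302)). WT replicate 1, the library with the highest levels of the odorant-binding protein genes, had the lowest level of sv, and the lowest of the epithelial marker grh (5.30 CPM, against 17.0 to 66.5 CPM in the other libraries). It also had less of the neuronal marker onecut (28.0 CPM) than the other controls (109.6 to 217 CPM). Its nSyb (706 CPM) and Syt1 (212 CPM) were the lowest of the controls as well. Its fne (389 CPM) lay above that of heterozygote replicate 3 (314 CPM). Its orco (2278 CPM) lay above that of heterozygote replicates 2 and 3 (1670 and 1730 CPM). The part of these cell types in the levels of the odorant-binding protein genes was not tested.

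**Figure D3:**
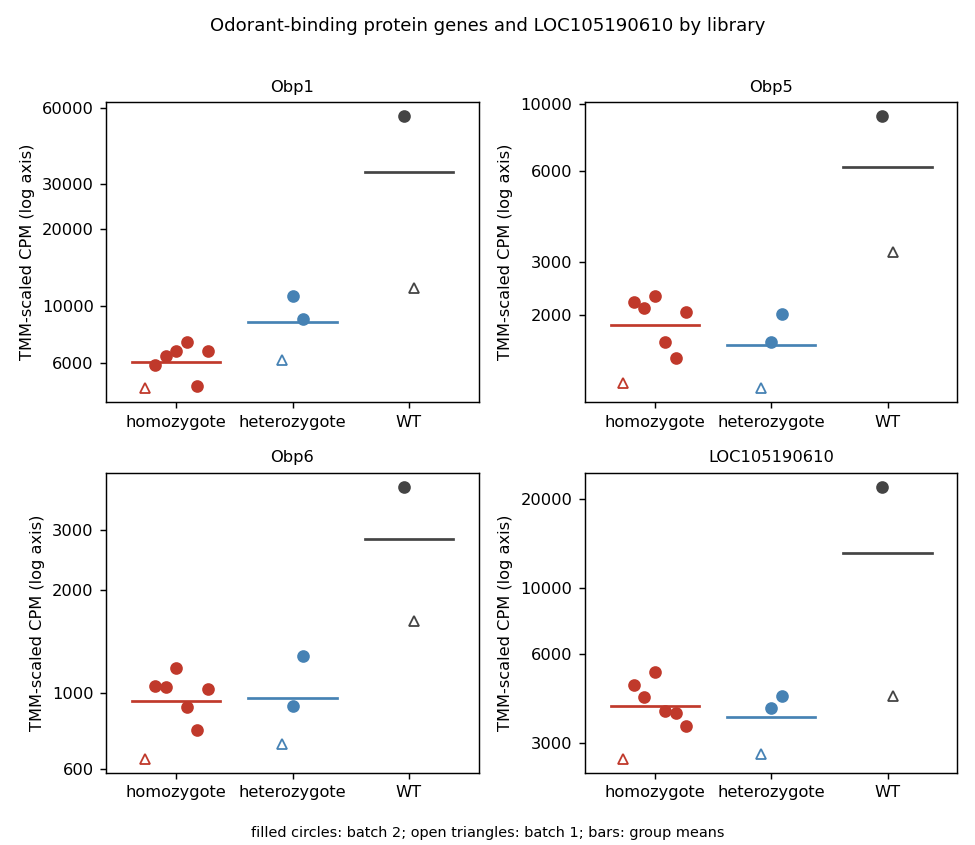
TMM-scaled CPM (log axis) of Obp1, Obp5, Obp6 and LOC105190610 in homozygotes (n = 7), heterozygotes (n = 3) and WT (n = 2). Each point is a library, filled circles are batch 2 and open triangles batch 1, and bars are group means. WT replicate 1 was the highest library in each panel (55594, 9133, 4027 and 22067 CPM), and homozygotes and heterozygotes overlapped.

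Among the genes without a symbol, LOC105190610, LOC112590358, LOC105191686, LOC105186860 and LOC105192207 had their highest level in WT replicate 1 and were called lower in heterozygotes against WT. LOC105190610 stood at 2644 to 5190 CPM (median 3835) in homozygotes, 2751, 3923 and 4320 CPM in heterozygotes and 22067 and 4334 CPM in WT. WT replicate 2 lay within the range of homozygotes over both batches. Within batch 1 it was above the others, with 2644 CPM in the homozygote, 2751 CPM in the heterozygote and 4334 CPM in the WT library. Its log2 fold change was -0.95 (SE 0.25, adjusted p = 0.0104) in homozygotes against controls and -1.74 (SE 0.38, adjusted p = 0.0112) in heterozygotes against WT. Without WT replicate 1 these values were -0.34 and -0.69 and neither was called. In homozygotes against WT LOC105190610 was called lower too (-1.82, and -0.69 without WT replicate 1). LOC112590358 had 950.2 to 2076 CPM (median 1740) in homozygotes, 802, 684 and 1435 CPM in heterozygotes and 4671 and 2383 CPM in WT, with both WT libraries above all others. It was lower in heterozygotes against WT (-1.91 (SE 0.32, adjusted p = 0.00282)) and in homozygotes against WT (-1.36 (SE 0.27, adjusted p = 0.00216)), and without WT replicate 1 neither comparison was called (-1.73 and -1.16). LOC105191686 had 3861 to 6437 CPM (median 5684) in homozygotes, 2618, 4674 and 3764 CPM in heterozygotes and 11110 and 3825 CPM in WT, and LOC105186860 had 2167 to 4957 CPM (median 3868) in homozygotes, 1426, 3356 and 2499 CPM in heterozygotes and 6119 and 3069 CPM in WT. In heterozygotes against WT the first changed by -1.04 (SE 0.28, adjusted p = 0.0285) and the second by -1.07 (SE 0.24, adjusted p = 0.012) on the log2 scale. Without WT replicate 1 the values were -0.51 and -1.05 and both calls were lost. For LOC105191686 the call was also lost without heterozygote replicate 1 (-1.12) and without heterozygote replicate 3 (-0.93), and for LOC105186860 without heterozygote replicate 1 (-1.03). In homozygotes against WT, LOC105186860 was called lower (-0.58), a call lost in 8 of the 12 fits that each left out 1 library (-0.69 to -0.56). LOC105191686 was not called there with edgeR (-0.60, adjusted p = 0.0684), and DESeq2 called it lower (-0.58, adjusted p = 0.0207). Within batch 2 alone its value was -0.95.

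Of the 3 ion pump genes, Atpalpha and Vha16 had their highest mean in heterozygotes and their lowest in WT, and SERCA had its highest mean in homozygotes and its lowest in WT. Atpalpha (LOC105182517) encodes the catalytic subunit of the Na+/K+-ATPase, which restores the ion gradients of neurons and secretory cells. It had 2426 to 3283 CPM (median 2590) in homozygotes, 4408, 7233 and 3764 CPM in heterozygotes and 1436 and 2275 CPM in WT. All heterozygotes lay above all homozygotes, and both WT libraries lay below all homozygotes. The log2 fold change was -0.92 (SE 0.22, adjusted p = 0.0116) in homozygotes against heterozygotes, 1.54 (SE 0.33, adjusted p = 0.00975) in heterozygotes against WT, and 0.62 (SE 0.29, adjusted p = 0.105) in homozygotes against WT, and within batch 2 alone it was -1.10 and 1.94 for the called pairs. Heterozygote replicate 2, the highest library, decided the first call (-0.48 without it, not called) and WT replicate 1, the lowest, the second (1.23 without it, not called). In homozygotes against WT, DESeq2 called Atpalpha higher (0.64, adjusted p = 0.0351). Vha16 (LOC105188743), the proteolipid subunit of the proton-pumping V-ATPase, had 2585 to 3546 CPM (median 2817) in homozygotes, 3342, 5479 and 3110 CPM in heterozygotes and 1933 and 1868 CPM in WT. Its heterozygotes also all lay above both WT libraries, by 1.07 (SE 0.30, adjusted p = 0.0304) on the log2 scale. Within batch 2 alone this was 1.15 (adjusted p = 0.0529), and the call was lost in 3 of the 12 fits that each left out 1 library (0.76 to 1.26). All homozygotes of Vha16 lay above both WT libraries as well. In homozygotes against WT it was not called with edgeR (0.66 (SE 0.27, adjusted p = 0.0667)), and DESeq2 called it higher (0.68, adjusted p = 0.0151). The V-ATPase has further subunits in the annotation. Of 11 tested, Vha16 included, 3 were higher in heterozygotes against WT (9.71% of all genes), 1 was higher in homozygotes against controls (18.8% of all genes), and none was lower in either comparison.

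SERCA (LOC105184991), the pump that returns calcium to the endoplasmic reticulum and is most abundant in muscle, was the member with the second widest range. It had 3533 to 10046 CPM (median 7014) in homozygotes, 5575, 835 and 4403 CPM in heterozygotes and 609 and 1917 CPM in WT. The lowest libraries were WT replicate 1 and heterozygote replicate 2, and homozygotes overlapped with the other heterozygotes. SERCA was higher in homozygotes against controls (2.18 (SE 0.46, adjusted p = 0.00316)) and against WT (3.07 (SE 0.69, adjusted p = 0.00426)), was not called against heterozygotes (1.30 (SE 0.50, adjusted p = 0.0863)), and in heterozygotes against WT had 1.78 (SE 0.66, adjusted p = 0.0843). DESeq2 called SERCA higher in homozygotes against heterozygotes (1.35, adjusted p = 0.0103) and in heterozygotes against WT (1.75, adjusted p = 0.0132). The call against controls was kept without any single library and was 2.43 within batch 2 alone, while that against WT was lost without WT replicate 1 (2.59).

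Muscle genes moved with SERCA. The 10 sarcomere genes with a symbol, none of them a member, were all called higher in homozygotes against controls (18.8% of all genes), and 9 of 10 in homozygotes against WT (19.1%), 5 of 10 in heterozygotes against WT (9.71%) and 2 of 10 in homozygotes against heterozygotes (6.82%). Their summed level lay between 9521 and 18990 CPM in homozygotes, at 11429, 2381 and 9803 CPM in heterozygote replicates 1, 2 and 3, and at 1937 and 2645 CPM in WT. Heterozygote replicate 2 lay between the WT libraries in this sum, as it did in SERCA. Mhc, the muscle myosin heavy chain, had 3111 to 8559 CPM (median 5467) in homozygotes, 4819, 603 and 3469 CPM in heterozygotes and 281 and 1053 CPM in WT. The part of muscle in the SERCA levels was not tested.

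**Figure D4:**
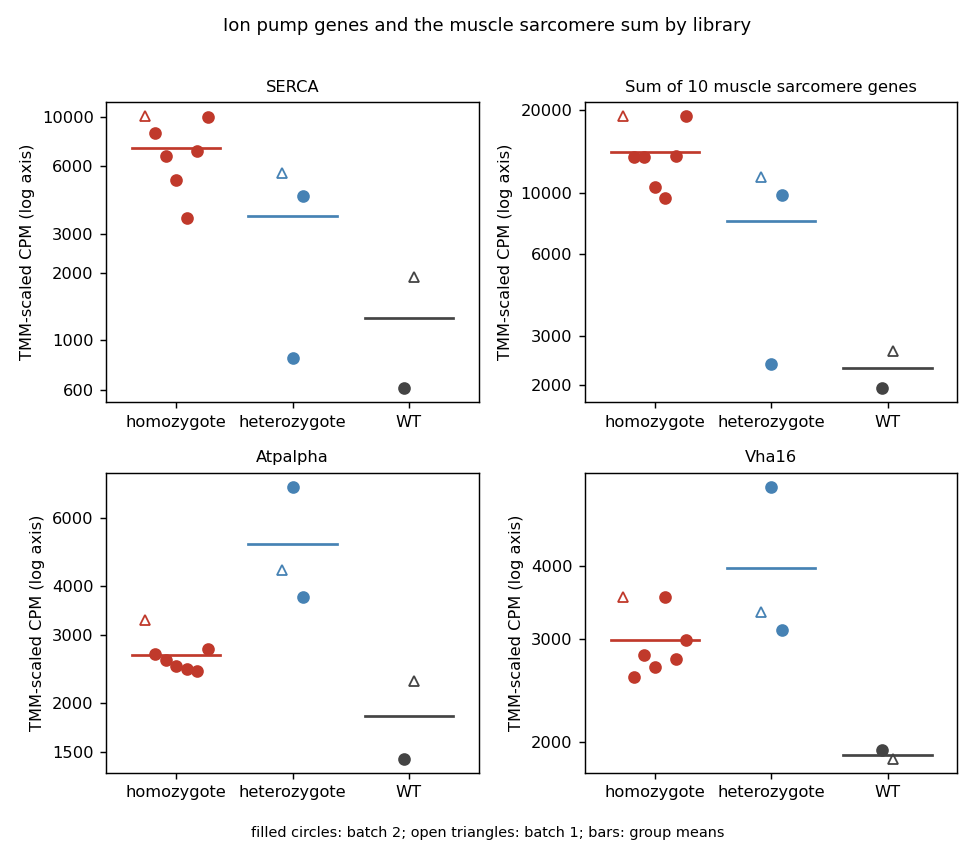
TMM-scaled CPM (log axis) of SERCA, of the sum of 10 muscle sarcomere genes, of Atpalpha and of Vha16 in homozygotes (n = 7), heterozygotes (n = 3) and WT (n = 2). Points are libraries (filled circles batch 2, open triangles batch 1) and bars are group means. SERCA and the muscle sum were both low in heterozygote replicate 2 (835 and 2381 CPM) and in WT, whereas Atpalpha and Vha16 were highest in heterozygote replicate 2 (7233 and 5479 CPM).

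Genes of energy supply were among the steadiest. Ant (LOC105185646), the mitochondrial ADP/ATP translocase, had 1263 to 1575 CPM (median 1456) in homozygotes, 1239, 1083 and 1421 CPM in heterozygotes and 1207 and 1068 CPM in WT, a ratio of 1.47 between the highest and the lowest library. Argk1 (LOC105188133), the arginine kinase that buffers ATP in arthropod cells, had 1285 to 2198 CPM (median 1828) in homozygotes, 1811, 1983 and 2174 CPM in heterozygotes and 1681 and 1470 CPM in WT, a ratio of 1.71. Neither was called in any genotype comparison or between batches with edgeR and all 12 libraries. Their log2 fold changes in homozygotes against controls were 0.26 (SE 0.13, adjusted p = 0.111) for Ant, which DESeq2 called higher (0.29, adjusted p = 0.00434), and -0.01 (SE 0.15, adjusted p = 0.956) for Argk1. The mitochondrially encoded mt:COI, outside the 51 genes, had 2982 to 6419 CPM (median 5752) in homozygotes, 2775, 3336 and 5592 CPM in heterozygotes and 6734 and 2854 CPM in WT.

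The other genes with the lowest SD over libraries were LOC105187393, 14-3-3zeta and pasilla. LOC105187393 held its level best of all members, at 1061 to 1256 CPM (median 1222) in homozygotes, 1311, 1428 and 1313 CPM in heterozygotes and 1254 and 1067 CPM in WT, an SD of 0.13 on the log2 scale. The adaptor protein gene 14-3-3zeta (LOC105182505) had 1522 to 2040 CPM (median 1637) in homozygotes, 2376, 1912 and 1889 CPM in heterozygotes and 1553 and 2173 CPM in WT, and its 3 highest values belonged to batch 1 (log2 fold change of batch 2 against batch 1 -0.36 (SE 0.13, adjusted p = 0.0473)). The RNA-binding splicing regulator pasilla (LOC105191005), known from Drosophila, had 984 to 1474 CPM (median 1243) in homozygotes, 1293, 1400 and 1040 CPM in heterozygotes and 1075 and 1565 CPM in WT. In homozygotes against controls these 3 genes had log2 fold changes of -0.09, -0.10 and 0.03 (adjusted p = 0.538, 0.495 and 0.902). The sign for pasilla flipped with library totals, with TMM factors from the other genes and without the batch term.

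**Figure D5:**
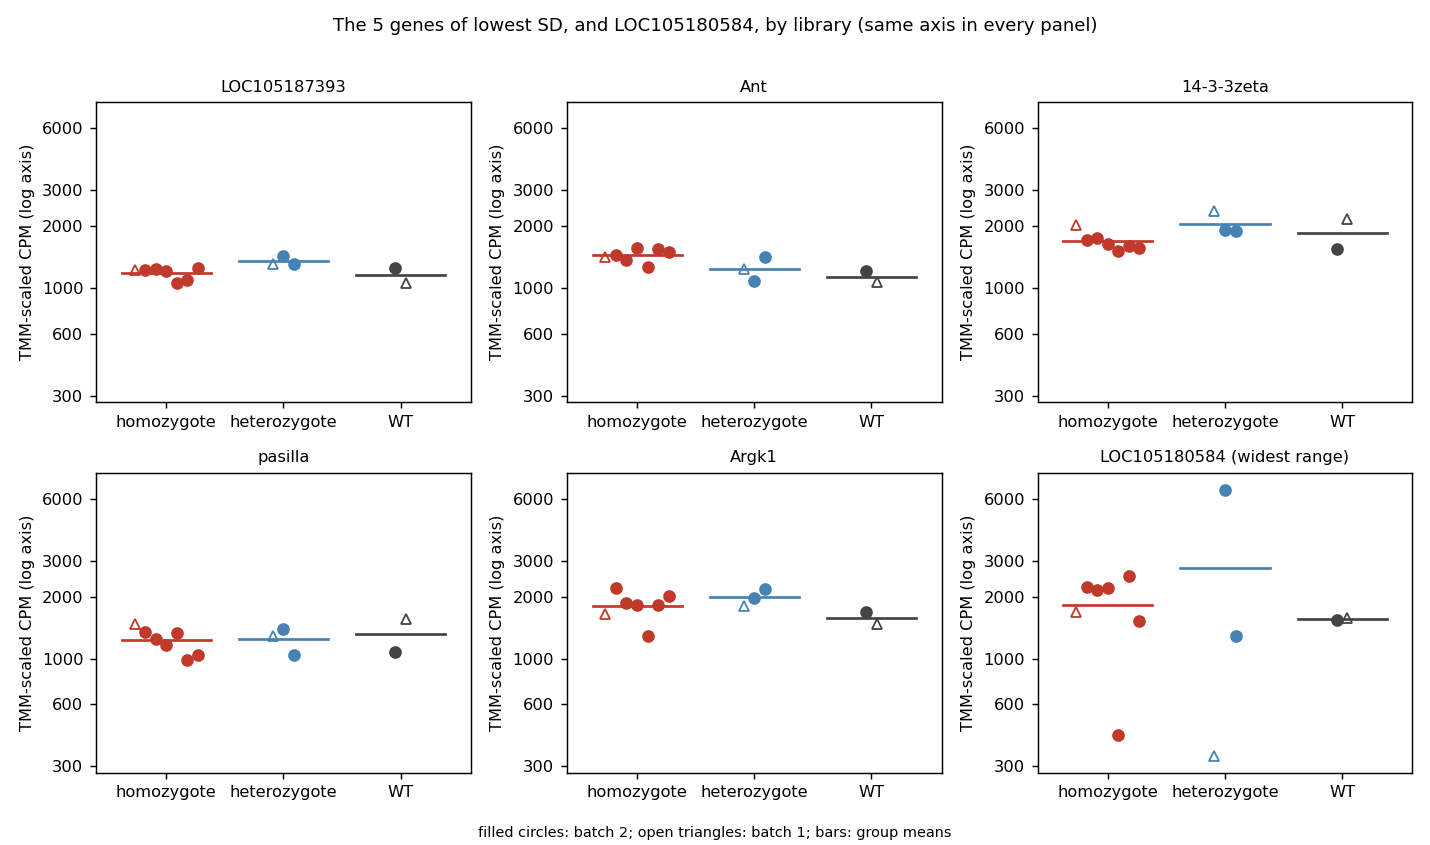
TMM-scaled CPM (log axis, the same in every panel) of the 5 genes with the lowest SD over the 12 libraries and of LOC105180584, the gene with the widest range, in homozygotes (n = 7), heterozygotes (n = 3) and WT (n = 2). Points are libraries (filled circles batch 2, open triangles batch 1) and bars are group means. The 5 steady genes stayed within 1.71-fold, whereas LOC105180584 ran between 339 and 6643 CPM.

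The 6 genes of translation and RNA binding had ratios between 1.59 and 2.84 over the libraries, and with edgeR and all 12 libraries none was called in homozygotes against controls, against heterozygotes or against WT. With DESeq2, eIF4A (0.38), pAbp (0.58), yps (0.29) and EF1a-F2 (0.47) were called higher in homozygotes against heterozygotes, as were 1377 of all 10730 genes. DESeq2 also called pAbp higher against controls (0.35, adjusted p = 0.0398) and eIF4A lower against WT (-0.37, adjusted p = 0.00341). In heterozygotes against WT, the elongation factor eEF2 and the RNA helicase eIF4A, an initiation factor, were lower. eIF4A (LOC105190384) had 1061 to 1704 CPM (median 1465) in homozygotes, 848, 1081 and 1265 CPM in heterozygotes and 2084 and 1294 CPM in WT, with all heterozygotes below both WT libraries. The log2 fold change was -0.73 (SE 0.17, adjusted p = 0.0162), and without WT replicate 1 it was -0.63 and not called. eEF2 (LOC105191126) had 1145 to 1787 CPM (median 1362) in homozygotes, 830.0, 1336 and 1128 CPM in heterozygotes and 1885 and 1536 CPM in WT and a fitted log2 difference of -0.72 (SE 0.22, adjusted p = 0.0468), a call lost in 10 of the 12 fits that each left out 1 library (-0.81 to -0.63). The other elongation factor, EF1a-F2 (LOC105189136), had 1550 to 2973 CPM (median 2343) in homozygotes, 1046, 2060 and 1688 CPM in heterozygotes and 2787 and 2139 CPM in WT and was not called in heterozygotes against WT with edgeR (-0.77 (SE 0.26, adjusted p = 0.0652)). DESeq2 called it lower there (-0.79, adjusted p = 0.00967). The poly(A)-binding protein gene pAbp (LOC105182384) ran between 1383 and 3069 CPM and the Y-box protein gene yps (LOC105181494) between 1907 and 3280 CPM over all libraries, with no genotype call in edgeR with all libraries. DESeq2 also called yps lower in heterozygotes against WT (-0.47, adjusted p = 0.0117).

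No ribosomal protein gene was a member. Of 58 cytosolic ribosomal protein genes tested, 51 were lower in heterozygotes against WT, 27 lower in homozygotes against controls and none higher in either, where 8.14% and 25.0% of all genes were called lower, with median log2 fold changes of -0.97 and -0.38. In homozygotes against WT, 52 of the 58 were lower (25.8% of all genes) and none higher (19.1%), with a median of -0.95. Against heterozygotes, 1 was higher (6.82%) and none lower (16.2%), with a median of 0.14. Their summed level was between 7894 and 10745 CPM in homozygotes and between 6186 and 10073 CPM in heterozygotes, against 22039 CPM in WT replicate 1 and 9735 CPM in WT replicate 2. WT replicate 2 lay within the homozygotes and heterozygotes over both batches, but within batch 1 the sum was 7894 CPM in the homozygote, 6186 CPM in the heterozygote and 9735 CPM in the WT library, and 36 of the 58 genes were called higher in batch 2 than in batch 1. Of 36 translation factors tested, 3 of them members, 3 were higher and 6 lower in heterozygotes against WT, where 9.71% and 8.14% of all genes were, and 2 were higher and 5 lower in homozygotes against controls, where 18.8% and 25.0% were.

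Protein folding and turnover genes varied little. Hsc70-4 (LOC105181885), the constitutive cytosolic chaperone, had 1369 to 2192 CPM (median 1673) in homozygotes, 2681, 2040 and 2250 CPM in heterozygotes and 1935 and 1747 CPM in WT and was not called with edgeR and all libraries. DESeq2 called Hsc70-4 lower in homozygotes against heterozygotes (-0.38, adjusted p = 0.02). Ubi-p63E (LOC105183026), a polyubiquitin gene, had 1027 to 1322 CPM (median 1178) in homozygotes, 1010, 907 and 1206 CPM in heterozygotes and 1908 and 1427 CPM in WT, with every WT library above every heterozygote and homozygote. It was lower in homozygotes against WT (-0.55 (SE 0.16, adjusted p = 0.016)) and in heterozygotes against WT (-0.71 (SE 0.18, adjusted p = 0.0209)), and without WT replicate 1 neither was called (-0.41 and -0.57). The second 14-3-3 gene, 14-3-3epsilon (LOC105186334), had 977 to 1116 CPM (median 999) in homozygotes, 1306, 1630 and 1249 CPM in heterozygotes and 1554 and 1028 CPM in WT. Its homozygotes spread over 1.14-fold and lay below all heterozygotes and WT replicate 1, while WT replicate 2 was within their range. It was lower in homozygotes against controls (-0.43 (SE 0.13, adjusted p = 0.0223), and -0.59 within batch 2 alone) and against heterozygotes (-0.48 (SE 0.15, adjusted p = 0.0403)). The first call was lost without WT replicate 1 (-0.23) and without heterozygote replicate 2 (-0.36), and the second in 8 of the 12 fits that each left out 1 library (-0.64 to -0.36).

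Of the 3 enzymes, 2 were called higher in homozygotes against controls and none was called lower in any comparison. Gs2 (LOC105186780), a glutamine synthetase, which fixes ammonia onto glutamate, had 1520 to 2493 CPM (median 1755) in homozygotes, 1837, 1781 and 1699 CPM in heterozygotes and 947 and 1300 CPM in WT. It was higher in homozygotes against WT (0.79 (SE 0.22, adjusted p = 0.0145)) and against controls (0.44 (SE 0.16, adjusted p = 0.0432)). Without WT replicate 1 the first was 0.59 and lost its call, and the second call was lost in 9 of the 12 fits that each left out 1 library (0.33 to 0.51). Drat (LOC105182773), a gene of the alcohol dehydrogenase-like family described in Drosophila, had 996 to 1641 CPM (median 1473) in homozygotes, 1254, 749 and 1278 CPM in heterozygotes and 889 and 1046 CPM in WT and a fitted log2 difference of 0.51 (SE 0.18, adjusted p = 0.0439) in homozygotes against controls, which was lost in 10 of the 12 fits that each left out 1 library (0.37 to 0.64). GstD1 (LOC105189222), a glutathione S-transferase of detoxification, had 2573 to 3710 CPM (median 3398) in homozygotes, 2439, 2775 and 3591 CPM in heterozygotes and 3090 and 1521 CPM in WT. With edgeR it was not called between genotypes and was higher in batch 2 than in batch 1 (0.55 (SE 0.18, adjusted p = 0.0338)). DESeq2 called GstD1 higher in homozygotes against WT (0.41, adjusted p = 0.024).

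Of the neural and regulatory genes, fax (LOC105184389), which acts in axon growth in Drosophila, had 1007 to 1240 CPM (median 1068) in homozygotes, 1238, 2398 and 1198 CPM in heterozygotes and 1827 and 950.2 CPM in WT. Its highest libraries were heterozygote replicate 2 and WT replicate 1, and homozygotes overlapped with heterozygote replicates 1 and 3. The log2 fold change in homozygotes against controls was -0.52 (SE 0.19, adjusted p = 0.0458), and the call was lost in 9 of the 12 fits that each left out 1 library (-0.75 to -0.30). The gene bnb (LOC105189268), expressed in glia of the Drosophila embryo, had 3032 to 3961 CPM (median 3603) in homozygotes, 1782, 4875 and 2156 CPM in heterozygotes and 2400 and 1040 CPM in WT, and was higher in homozygotes against WT (0.96 (SE 0.36, adjusted p = 0.0482)), a call lost in 8 of the 12 fits that each left out 1 library (0.56 to 1.48). The ecdysone-induced transcription factor gene Eip93F (LOC105183699), which directs the switch to adult development in Drosophila, had 1613 to 2847 CPM (median 1879) in homozygotes, 2702, 3640 and 2195 CPM in heterozygotes and 2571 and 4156 CPM in WT. It was not called in homozygotes against controls with edgeR (-0.50 (SE 0.19, adjusted p = 0.0571)), and DESeq2 called it lower (-0.47, adjusted p = 0.0329). Of 4 neuronal markers, none of them a member, nSyb had a fitted log2 difference of -1.77 (SE 0.12, adjusted p = 6.9e-07) in homozygotes against controls. In the same edgeR comparison onecut changed by -1.93 (adjusted p = 0.000112) and Syt1 by -0.57 (adjusted p = 0.00202). The marker fne was not called (-0.42, SE 0.16, adjusted p = 0.0585). Homozygotes and controls overlapped in onecut, Syt1 and fne.

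Among the genes with an identifier only, 4 were called higher in homozygotes against controls. The annotation gives 1 feature the joint identifier LOC105183483.LOC105183422. It had 3055 to 5604 CPM (median 4587) in homozygotes, 4200, 2583 and 2504 CPM in heterozygotes and 1853 and 4459 CPM in WT and a fitted log2 difference of 0.75 (SE 0.23, adjusted p = 0.0197), or 0.96 within batch 2 alone and 0.51 without WT replicate 1, where it was not called. LOC112588065 had 1408 to 2672 CPM (median 2007) in homozygotes, 859, 1606 and 1504 CPM in heterozygotes and 1606 and 333 CPM in WT, the lowest value being that of the shallow WT replicate 2. Its log2 fold change was 0.72 (SE 0.24, adjusted p = 0.0312), and 0.44 within batch 2 alone, where it was not called, and the call was lost in 7 of the 12 fits that each left out 1 library (0.45 to 1.25). In homozygotes against WT this gene was also called higher (0.97), a call lost in 5 of the 12 such fits (0.43 to 1.98). LOC105181234 had 1453 to 2124 CPM (median 2042) in homozygotes, 1308, 938 and 1485 CPM in heterozygotes and 1458 and 1199 CPM in WT and a fitted log2 difference of 0.54 (SE 0.17, adjusted p = 0.0244) against controls and 0.60 (SE 0.20, adjusted p = 0.0489) against heterozygotes. The first call was lost without WT replicate 1 (0.60) and without homozygote replicate 1 (0.54), and the second in 9 of the 12 fits that each left out 1 library (0.38 to 0.75). LOC105181900, singled out after its values were seen because its groups did not overlap, had 1200 to 1569 CPM (median 1372) in homozygotes, 922, 1113 and 1059 CPM in heterozygotes and 1152 and 805 CPM in WT, so the lowest homozygote lay just above WT replicate 1. It differed by 0.44 (SE 0.14, adjusted p = 0.0239) on the log2 scale, and by 0.27 within batch 2 alone, where it was not called. The call was also lost without WT replicate 2 (0.34), homozygote replicate 1 (0.24) and homozygote replicate 6 (0.40).

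LOC105183241 was the only gene of this class besides LOC105190610 called lower in homozygotes against controls. It had 1440 to 1892 CPM (median 1661) in homozygotes, 2534, 2471 and 2068 CPM in heterozygotes and 2586 and 1550 CPM in WT and a fitted log2 difference of -0.43 (SE 0.16, adjusted p = 0.0471), a call lost in 9 of the 12 fits that each left out 1 library (-0.60 to -0.12). LOC112588553, with 3583 to 5674 CPM (median 4511) in homozygotes, 3591, 3603 and 4614 CPM in heterozygotes and 3231 and 1182 CPM in WT, was higher in homozygotes against WT (1.03 (SE 0.32, adjusted p = 0.0225)) but not within batch 2 alone (0.54), and the call was lost without WT replicate 2 (0.55) and without homozygote replicate 1 (0.80). Against controls edgeR did not call it (0.60, adjusted p = 0.0507), and DESeq2 called it higher (0.63, adjusted p = 0.00732). In heterozygotes against WT edgeR did not call it either (0.85, adjusted p = 0.111), and DESeq2 called it higher (0.83, adjusted p = 0.0339). LOC105192207, with 1407 to 2522 CPM (median 1940) in homozygotes, 1060, 1167 and 1430 CPM in heterozygotes and 2578 and 1491 CPM in WT, was lower in heterozygotes against WT (-0.78 (SE 0.22, adjusted p = 0.034)) and higher in homozygotes against heterozygotes (0.59 (SE 0.18, adjusted p = 0.0372)). The first call was lost in 5 of the 12 fits that each left out 1 library (-0.94 to -0.59) and the second in 8 of the 12 fits that each left out 1 library (0.46 to 0.68).

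Some genes varied widely between libraries of 1 genotype with no call between genotypes. LOC105180584 had the widest range, 427 to 2522 CPM (median 2152) in homozygotes, 339, 6643 and 1294 CPM in heterozygotes and 1539 and 1582 CPM in WT. Heterozygote replicates 1 and 2 differed by 19.6-fold, and homozygote replicate 5 (427 CPM) stood apart from the other homozygotes. LOC105190888 and LOC105190889, neighbours with no annotated gene between them, both peaked in heterozygote replicate 2 and WT replicate 1 and were lowest in heterozygote replicate 1. LOC105190889 had 1482 to 2479 CPM (median 2265) in homozygotes, 1091, 5826 and 1542 CPM in heterozygotes and 5361 and 2557 CPM in WT, and LOC105190888 had 1151 to 1262 CPM (median 1232) in homozygotes, 721, 2389 and 1026 CPM in heterozygotes and 2298 and 1141 CPM in WT. LOC105191948 showed the same maximum, with 2193 to 3465 CPM (median 2896) in homozygotes, 1620, 5758 and 2099 CPM in heterozygotes and 3898 and 2914 CPM in WT. LOC105189045 had its lowest and its highest level in WT replicates 1 and 2, with 1520 to 2421 CPM (median 1907) in homozygotes, 2354, 951 and 1672 CPM in heterozygotes and 656 and 3249 CPM in WT. None of these 5 genes was called in any genotype comparison with edgeR and all 12 libraries. For LOC105180584 and LOC105191948 no alternative gave a call. LOC105189045 had a log2 fold change of 0.58 in homozygotes against controls (edgeR, adjusted p = 0.129) and was called higher with DESeq2 (0.61), in batch 2 alone (1.02), without WT replicate 2 (0.94) and without homozygote replicate 1 (0.84). In the same comparison LOC105190889 (-0.69) was called lower in batch 2 alone (-1.10) and without homozygote replicate 1 (-1.21), and so was LOC105190888 (-0.42, against -0.69 and -0.77).

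The remaining genes with an identifier only were not called between genotypes with edgeR and all 12 libraries. Of these, LOC105181661, LOC105185312 and LOC105181154 stayed within 1.97-fold over all libraries. LOC105186165, LOC105186089, LOC105182951, LOC105184076 and LOC105181992 stayed within 2.68-fold, LOC105189054 within 3.18-fold and LOC105192638 within 3.56-fold. In LOC105192638 the lowest library was WT replicate 2, at 675 CPM, against 2404 CPM in WT replicate 1. LOC105181661, LOC105182951, LOC105184076, LOC105181992 and LOC105192638 were each called in a genotype comparison under at least 1 alternative.

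The choice of genes used no batch label, but it used the means of these same libraries. Batch 2 held most homozygote and heterozygote libraries, so a minimum on the means can favour genes high in batch 2. The values by batch are therefore a description too. In batch 2 against batch 1, 15 of the 51 genes were higher, where 19.7% of all genes tested were called higher, and 3 were lower, where 17.8% were. The median log2 fold change was 0.38 for the members and 0.02 over all genes tested. With library totals the members called were 17 higher and 0 lower (edgeR), and the median over all genes moved to 0.14. Over all genes tested the calls were then 2485 higher and 1042 lower, against 2113 and 1909 with TMM. The number called depended on single libraries, at 7 without WT replicate 1, 7 without WT replicate 2 and 8 without heterozygote replicate 1. Over all genes these fits called 1497 higher and 1438 lower of 10658, 1492 and 1437 of 10771, and 1459 and 1327 of 10752. Higher in batch 2 were LOC112588065 (1.06 (SE 0.28, adjusted p = 0.0143)), LOC105190610 (1.01 (SE 0.30, adjusted p = 0.0237)) and LOC105186860 (0.96 (SE 0.19, adjusted p = 0.0041)), and lower were LOC105189045 (-1.03 (SE 0.32, adjusted p = 0.0286)), LOC105183483.LOC105183422 (-0.70 (SE 0.25, adjusted p = 0.0443)) and 14-3-3zeta. LOC105186860 averaged 4006 CPM in batch 2 and 2221 CPM in batch 1, and LOC105189045 averaged 1619 CPM in batch 2 and 2674 CPM in batch 1. Batch 1 held 1 library of each genotype, so differences between genotypes could not be tested within it.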

How the data were processed

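Per the labels, polyadenylated antennal RNA was extracted with TRIzol and made into libraries with a kit that keeps no strand information. For each library the authors deposited raw counts per gene, made with STAR 2.6.1d (gene counts of uniquely mapped reads) on their HSAL60 annotation of the assembly Hsal v8.6. The unstranded column was used, so overlapping genes, and genes opposite each other, cannot be separated. Lines that name no gene held 20.7% to 29.7% of reads and were left out. The authors also deposited a normalized signal (count divided by DESeq2 1.34.0 size factors), which equalled the count times 1 constant per library (0.514 to 2.40) and was used to choose the genes. Trimming is not given in the sources used here.

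Genes with a mean count of at least 10 (10740) were tested with edgeR 4.0.16 (R 4.3.3, limma 3.58.1): TMM scaling, quasi-likelihood test, genotype plus batch over all 12 libraries, Benjamini-Hochberg adjustment over all genes tested, threshold 0.05. Controls are the mean of the WT and heterozygote coefficients on the log2 scale. The study's methods give no test for these libraries. Standard errors are the log2 fold change over the root of F. On simulated counts for homozygotes against controls, 99.0% of 197 changed genes (by 2 on the log2 scale) among 10791 tested were recovered, and 3.94% of calls were false. The simulated counts had a single fixed dispersion, no batch effect and, apart from the change, the same expected share in every library. These rates therefore check the fit and need not hold for the calls reported here. Libraries of 1 genotype differed by a chi-square of at least 17.5 per gene, so none was a duplicate. Tables were computed with Python 3.11.15 (pandas 2.3.3, numpy 2.4.6, scipy 1.17.1).

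The genes and lists were chosen with earlier results of these data known. The genes named are the 10 highest in heterozygotes, the 5 with the lowest and the 5 with the highest SD, the 5 largest called changes each way in homozygotes against controls and in heterozygotes against WT, the 3 largest batch changes each way, the odorant-binding proteins and those at the minimum, and 25 genes met this rule. The remaining members were added after their values were seen. Symbols came from RefSeq (GCF assembly Hsal v8.6, matched on gene ID, 13659 of 13659). The pathway lists had been defined by gene descriptions, which were not in the table used here, so symbols replaced them. No sequence is shown, since none of these genes had one in the reference used here. Alternatives were library totals, TMM factors from the other genes, DESeq2 1.42.0, no filter, no batch term, batch 2 alone, a replicate block, each library left out, and other minimums.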

Additional observations from a re-analysis of the deposited data

Results flagged for a closer look

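Among homozygotes, 3 genes had a library far from the other 6. Atpalpha was 3283 CPM in homozygote replicate 1, against 2426 to 2750 CPM in the others. LOC105180584 was 427 CPM in homozygote replicate 5, against 1525 to 2522 CPM in the others. 14-3-3epsilon was 1116 CPM in homozygote replicate 1, against 977 to 1022 CPM in the others. Homozygote replicate 1 is the homozygote library of batch 1. With 52 groups tested by the gap of the extreme library over the range of the group, chance alone flags about 1 group in 20.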

How the results depend on the processing

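The number of members called in homozygotes against controls (14) was 6 without the batch term and 8 to 14 with 1 library left out. In homozygotes against heterozygotes (4) it was 20 with DESeq2, 2 without the filter, 1 without the batch term, 2 in batch 2 alone, and 0 to 7. In homozygotes against WT (12) it was 22 with DESeq2, and 5 to 18. In heterozygotes against WT (13) it was 20 with DESeq2, 5 without the batch term, and 3 to 15. Between batches (18) it was 7 to 17. Calls over all 10740 genes moved too. Without the batch term they were 1250 higher and 1787 lower, 274 and 1212, 1195 and 1771, and 423 and 298 in the genotype comparisons, in this order. The number of genes chosen (51) was 150 at a minimum of 5000 normalized counts (151 before the limit), 15 at 20000, 49 to 52 with 1 library left out, and the same 51 genes with group means of TMM-scaled CPM. The median SD was 0.36 to 0.42 and the share of counts 11.9% to 12.9% with 1 library left out.

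Whether replicate numbers pair the samples could not be settled. Of 7 same-numbered pairs across genotypes, correlations of deviations ran from -0.58 to 0.56, and 2 exceeded 0.1. With 2 WT libraries the WT deviations mirror each other, and same-numbered pairs with WT always cross batches. The highest pair, heterozygote and homozygote replicate 1 (0.56), shares batch 1. With the replicate block in place of batch, edgeR called 0 members in each genotype comparison, with 1, 0, 5 and 5 members at an unadjusted p under 0.05 in homozygotes against controls, against heterozygotes, against WT and in heterozygotes against WT. Over all 10740 genes tested, the block called 186 higher and 532 lower, 4 and 466, 258 and 513, and 67 and 12. At an unadjusted p under 0.05 these were 942 and 1158, 347 and 1008, 988 and 1189, and 655 and 451.

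Of 43 called gene comparisons in the text, none changed sign under any alternative run, and 26 were lost without WT replicate 1, 23 without the batch term, 12 with library totals, 12 in batch 2 alone, 9 without the filter, 4 with TMM factors from the other genes and none with DESeq2. Library totals moved the median of all genes in homozygotes against controls to -0.17, from 2023 higher and 2689 lower calls to 1297 and 3294.

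Of the 161 uncalled log2 fold changes of the members over the 4 genotype comparisons, 70 changed sign under at least 1 alternative and 54 were called under at least 1, none of these with a changed sign. Of the calls gained, 40 came with DESeq2, 12 in batch 2 alone, 13 without WT replicate 2, 13 without homozygote replicate 1 and 11 without heterozygote replicate 2. For homozygotes against controls the sign changes of the genes named by rule were these. Library totals gave -0.020 for Vha16 and -0.12 for pasilla, TMM factors from the other genes -0.012 for pasilla, DESeq2 0.018 for Argk1, and no batch term 0.063 for LOC105191686, -0.059 for pasilla, 0.034 for Argk1 and 0.17 for LOC105186860. The replicate block gave 0.013 for Atpalpha, 0.089 for Argk1 and 0.28 for LOC105180584. With 1 library left out the values ran from -0.33 to 0.11 for Atpalpha, -0.073 to 0.32 for Vha16, -0.25 to 0.22 for LOC105191686, -0.59 to 0.16 for LOC105191948, -0.080 to 0.13 for pasilla, -0.074 to 0.051 for Argk1, -0.94 to 0.56 for LOC105180584 and -0.13 to 0.040 for LOC105186860. Causes were not tested. With 2 WT libraries, 1 per batch, leaving 1 out assumes that the other varies like the remaining groups.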
